A study of Rattus norvegicus with 6 samples.

Results

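The apolipoprotein genes Apoa1, Apoa2, Apoa4, Apoa5, Apob, Apoc1, Apoc2, Apoc3, Apoe and Apoh were followed in rat liver after repeated exposure to carbon tetrachloride (CCl4). They were chosen by gene symbol and matched to every probe of the array that carries one of their RefSeq accessions, which gave 15 probes. All 10 genes were measured, among 11933 genes tested on the array. Liver RNA came from 6 male Sprague-Dawley rats, an outbred stock, aged 5 weeks at purchase and kept on a basal diet. The vehicle group of 3 rats received corn oil, and the exposed group of 3 rats received CCl4 at 100 mg/kg/day, a solvent that liver enzymes convert to reactive products. Each rat gave 1 array. The labels disagree on the length of exposure, with 28 days in the series design and 9 weeks in the treatment protocol.

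Apolipoproteins are the protein part of lipoproteins, the particles that carry triglyceride and cholesterol in plasma, and the liver is the main source of most of them. ApoB is the structural protein of very low density lipoprotein, ApoA-I and ApoA-II are the main proteins of high density lipoprotein, and the small C apolipoproteins and ApoA-V set how fast lipoprotein lipase removes triglyceride. ApoE is a ligand for the receptors that clear remnant particles, and ApoH, also called beta-2-glycoprotein I, is a phospholipid-binding plasma protein. In the rat gene table Apoa1, Apoc3, Apoa4 and Apoa5 follow each other on chromosome 8, and Apoc2, Apoc4, Apoc1 and Apoe follow each other on chromosome 1.

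Promoter windows are shown for the 3 genes with the largest mean differences, so that the gene starts behind those values can be seen. Each is the 250 bases before an annotated start site, 5′ to 3′ on the gene's strand, from RefSeq sequence of the GRCr8 build. Apoa4 lies at chr8:55435529-55435778 on the plus strand, Apoa5 at chr8:55457621-55457870 on the plus strand and Apoc2 at chr1:88462366-88462615 on the minus strand. Capitals mark matches, on either strand, to the TATA box letters TATAAA and to the nuclear receptor half-site letters AGGTCA.
Apoa4: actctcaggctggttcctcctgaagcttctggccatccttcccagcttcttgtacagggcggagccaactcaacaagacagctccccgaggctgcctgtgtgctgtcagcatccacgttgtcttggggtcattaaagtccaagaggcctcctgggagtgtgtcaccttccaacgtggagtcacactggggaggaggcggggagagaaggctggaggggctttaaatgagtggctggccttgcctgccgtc
Apoa5: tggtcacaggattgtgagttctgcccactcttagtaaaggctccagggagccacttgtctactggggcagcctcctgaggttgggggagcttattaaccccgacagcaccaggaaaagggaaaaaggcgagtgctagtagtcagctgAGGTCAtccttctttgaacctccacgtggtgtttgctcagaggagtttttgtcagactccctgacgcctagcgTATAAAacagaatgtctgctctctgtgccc
Apoc2: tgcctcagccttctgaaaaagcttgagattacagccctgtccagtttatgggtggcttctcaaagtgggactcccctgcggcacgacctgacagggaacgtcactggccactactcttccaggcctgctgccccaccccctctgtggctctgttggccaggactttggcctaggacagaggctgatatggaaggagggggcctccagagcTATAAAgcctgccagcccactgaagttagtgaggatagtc
TATAAA began 30 bases before the start in the Apoa5 window shown and 40 bases before it in the Apoc2 window. Of 33469 rat promoter windows of this length, 12.9% hold it. AGGTCA stood 103 bases before the same Apoa5 start, and 14.1% of all windows hold it. Apoa5 has another annotated start, with a window at chr8:55457775-55458024. There TATAAA began 184 bases before the start and AGGTCA was absent, so both depend on the start used. Of the 6 genes with a window in the table (Apoa4, Apoa5, Apoc1, Apoc2, Apoe and Apoh, 10 windows in all), Apoa5 and Apoc2 also held TGACG, the core of the cyclic AMP response element (18.2% of all windows). CCAAT was found in a single window of Apoc1 and of Apoe, not in their others (34.0% of all windows). CAAAGTNCA, an element of the hepatocyte factor HNF4, was found in 0 of the 6 (1.06% of all windows). A gene was counted when any of its windows held the letters, whereas the shares are over single windows, so the 2 are not alike. These are letter matches only, counted for each motif whether or not it overlaps another.

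All 10 apolipoprotein genes had a lower mean in CCl4 livers than in corn oil livers, by 14.0% for Apoc1 to 38.9% for Apoa4, and 0 of the 10 passed the test of limma over all genes. The median log2 change of the 10 genes was -0.40, beside -0.05 over all genes tested, of which 57.1% had a change below 0. At an adjusted p below 0.05, 76 genes (0.637%) passed of which 9 (0.0754%) were lower and 67 (0.561%) higher in CCl4. The adjusted p-values of the 10 ran from 0.0872 (Apoa5) to 0.566 (Apoa2). At an unadjusted p below 0.05 there were 4, Apoa1, Apoa5, Apoc2 and Apoe, where 19.7% of all genes lay at that level and 9.74% were lower. For 5 of the 10 (Apoa1, Apoa5, Apob, Apoc2 and Apoe) every CCl4 animal lay below every corn oil animal, which held for 15.8% of all genes. The signals are given as log2 of the background-subtracted signal relative to the 75th percentile of the array (which is therefore 0 on this scale), and levels of different probes are not compared.

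**Figure D1:**
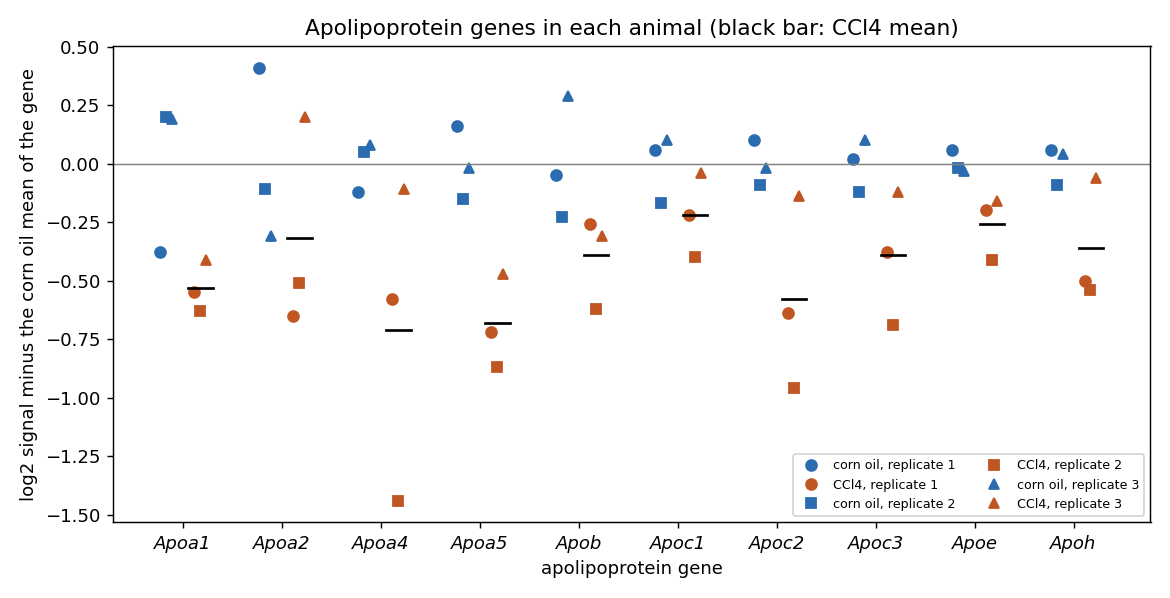
Each point is 1 animal, as log2 signal minus the corn oil mean of that gene (vertical axis), for the 10 genes (horizontal axis), with corn oil in blue, CCl4 in orange and a black bar at the CCl4 mean. CCl4 replicate 2 (squares) was the lowest CCl4 animal for 9 of the 10 genes and CCl4 replicate 3 (triangles) the highest for 9.

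Among the apolipoproteins of high density lipoprotein, Apoa1 showed the clearer separation. Apoa1, whose product activates cholesterol esterification in plasma, was at 8.04, 8.62 and 8.61 in the corn oil animals and at 7.87, 7.79 and 8.01 in the CCl4 animals. Corn oil replicate 1 lay apart from both others and just above the highest CCl4 animal, so the groups did not overlap. The log2 change was -0.53 ± 0.18 (SE, n = 3 per group; 95% interval -0.97 to -0.09; limma adjusted p = 0.198), a level 30.8% lower. Apoa2, the second protein of this particle, was at 9.02, 8.50 and 8.30 in corn oil and 7.96, 8.10 and 8.81 in CCl4. CCl4 replicate 3 was above both of the lower corn oil animals, and the groups overlapped. Its change of -0.31 ± 0.28 had an interval of -1.0 to 0.37 (adjusted p = 0.566), the widest but for that of Apoa4. The change was -0.11 with corn oil replicate 1 left out, -0.15 with CCl4 replicate 1 left out and -0.57 with CCl4 replicate 3 left out, and -0.65 with slide as a fixed block.

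Apoa4 and Apoa5, which lie next to each other, had the largest mean differences, with unlike spreads. Apoa4, a protein of triglyceride-rich particles and high density lipoprotein, was at 9.0, 9.17 and 9.20 in corn oil and at 8.54, 7.68 and 9.01 in CCl4. The corn oil animals lay close together (SD 0.11), whereas the CCl4 animals were spread (SD 0.67), and CCl4 replicate 3 sat within the corn oil range. The change was -0.71 ± 0.32 (interval -1.50 to 0.07; adjusted p = 0.284). Leaving out CCl4 replicate 2 gave -0.35 and leaving out CCl4 replicate 3 gave -1.01, so its size rested on which CCl4 animals were kept. Apoa5, an activator of triglyceride removal from plasma, was at 8.79, 8.48 and 8.61 in corn oil and 7.91, 7.76 and 8.16 in CCl4. All 3 CCl4 animals were below the lowest corn oil animal. The change of -0.68 ± 0.15 had an interval of -1.03 to -0.33, and its adjusted p of 0.0872 in limma was the smallest of the 10 genes. Leaving out each animal in turn moved it between -0.79 and -0.59.

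The C apolipoproteins differed in size of change. Apoc2, the cofactor that lipoprotein lipase needs, was at 8.73, 8.54 and 8.61 in corn oil and 7.99, 7.67 and 8.49 in CCl4. The groups did not overlap, although CCl4 replicate 3 came close to the lowest corn oil animal. The change was -0.58 ± 0.21 (interval -1.09 to -0.06; adjusted p = 0.221), a level 32.9% lower. Apoc3, which inhibits triglyceride removal, was at 9.96, 9.82 and 10.04 in corn oil and 9.56, 9.25 and 9.82 in CCl4 on its brighter probe. CCl4 replicate 3 and corn oil replicate 2 were level there to the second decimal, and on the other probe of Apoc3 the groups did not overlap. The changes were -0.39 ± 0.17 (adjusted p = 0.258) and, in the fit over probes, -0.45 ± 0.20 (adjusted p = 0.330). Apoc1, an inhibitor of particle uptake and of plasma lipid transfer, was at 10.02, 9.79 and 10.06 in corn oil and 9.74, 9.56 and 9.92 in CCl4. The groups overlapped, and its change of -0.22 ± 0.14 (adjusted p = 0.419) was the smallest of the 10.

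Apob was the member with the most probes, and its probes did not give 1 size of change. On the brightest of 5 probes Apob was at 8.31, 8.13 and 8.65 in corn oil and 8.10, 7.74 and 8.05 in CCl4. The highest CCl4 animal fell just short of the lowest corn oil animal, and the change was -0.40 ± 0.18 (adjusted p = 0.272). The other 4 probes gave changes of -0.19, -0.16, -0.12 and -0.07, each with an SE of 0.11 to 0.19 in the fit over probes, and the groups overlapped on 3 of them. Averaged over its probes, Apob was at -0.19 (adjusted p = 0.446). All 5 probes were well above background on every array.

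Apoe and Apoh each had a narrow corn oil spread (SD 0.05 and 0.08), and Apoe had the smaller change. Apoe, which is made by hepatocytes and also by macrophages, was at 10.31, 10.23 and 10.22 in corn oil and 10.05, 9.84 and 10.09 in CCl4. The groups did not overlap, and the change was -0.26 ± 0.11 (adjusted p = 0.253), a level 16.6% lower. Its probe came nearest to the scanner's ceiling, at 74.9% to 92.1% of the scanner's saturation value, where 0 of the 15 probes carried a saturation flag on any array. The next were the Apoc3 and Apoc1 probes, with highest values of 78.5% and 73.6%. Whether signal is compressed so near the ceiling was not tested. Apoh was at 9.04, 8.89 and 9.02 in corn oil and 8.48, 8.44 and 8.92 in CCl4. CCl4 replicate 3 was within the corn oil range, apart from the other CCl4 animals, and the change was -0.37 ± 0.16 (adjusted p = 0.259).

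**Figure D2:**
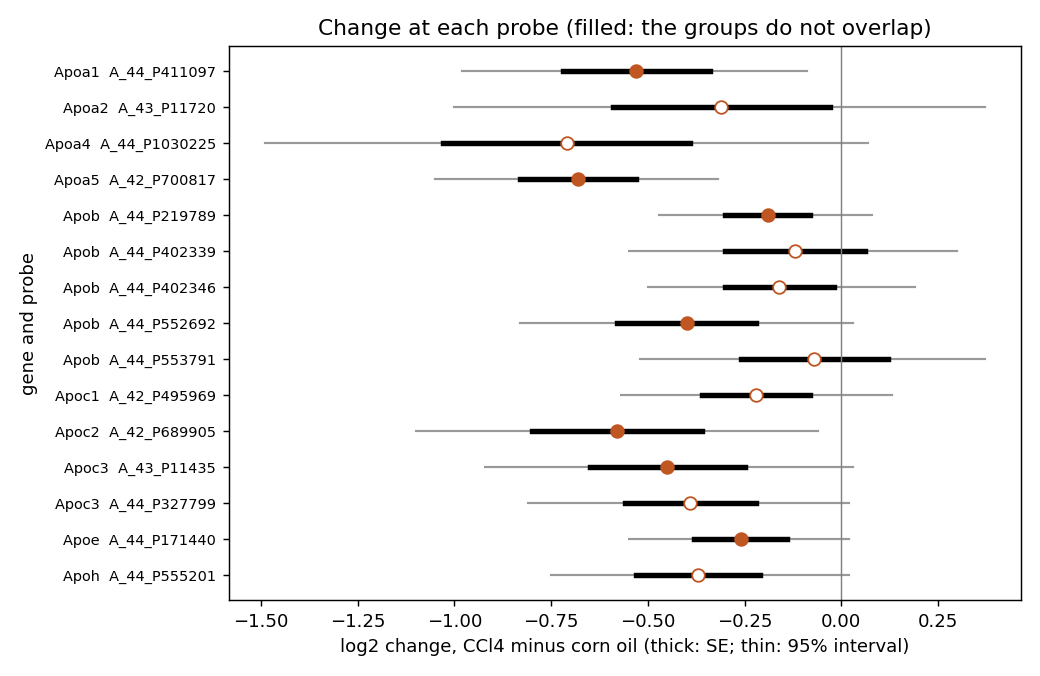
Log2 change (CCl4 minus corn oil, horizontal axis) for each of the 15 probes (vertical axis), with the SE as a thick bar and the 95% interval as a thin one, from the fit over probes. All 15 points lie below 0, from -0.71 (Apoa4) to -0.07 (an Apob probe), and 7 are filled because their groups did not overlap, with all CCl4 animals lower, as held for 13.7% of all probes.

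In the fit over all 40478 probes well above background, 0 of the 15 passed in limma (138 probes, 0.341%, passed in all). At an unadjusted p below 0.05 there were 3 of the 15, those of Apoa1, Apoa5 and Apoc2, where 16.0% of all probes lay at that level and 8.13% were lower. The smallest adjusted p was 0.128, for Apoa5.

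The 3 CCl4 animals did not stand equally low. The median over the 10 genes, relative to the corn oil mean, was -0.53 in CCl4 replicate 1, -0.63 in CCl4 replicate 2 and -0.13 in CCl4 replicate 3. In the corn oil animals it was 0.05, -0.10 and 0.06. CCl4 replicate 3 was below the corn oil mean for 9 of the 10 genes, all but Apoa2, and replicates 1 and 2 for all 10. Without CCl4 replicate 3 the median change was -0.55 and the smallest adjusted p 0.0650 (Apoa5), and without CCl4 replicate 2 they were -0.28 and 0.251. CCl4 replicate 1 shared its slide and scan with all 3 vehicle arrays, whereas CCl4 replicates 2 and 3 were on another slide. Within the shared slide, where 1 CCl4 array is set against 3, the changes ran from -0.71 (Apoa5) to -0.21 (Apoe) with a median of -0.53, the same values as with slide as a fixed block.

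The size of the differences depended on how arrays were scaled. Quantile normalization, which gives all arrays the same distribution, left a median of -0.26 and changes from -0.56 (Apoa5) to -0.05 (Apoc1), all still below 0. It more than halved the values of Apoc1, Apoe (-0.12) and Apoh (-0.17). The log2 level exceeded by 1 probe in 1000 was 9.65 to 9.73 on corn oil arrays and 9.37 to 9.60 on CCl4 arrays, so it was lower on every CCl4 array. The level exceeded by 1 probe in 100 overlapped, at 7.27 to 7.34 and 7.19 to 7.30, and the part of this in the member values was not tested. Median scaling put the median of all genes at -0.08 and gave a member median of -0.43.

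**Figure D3:**
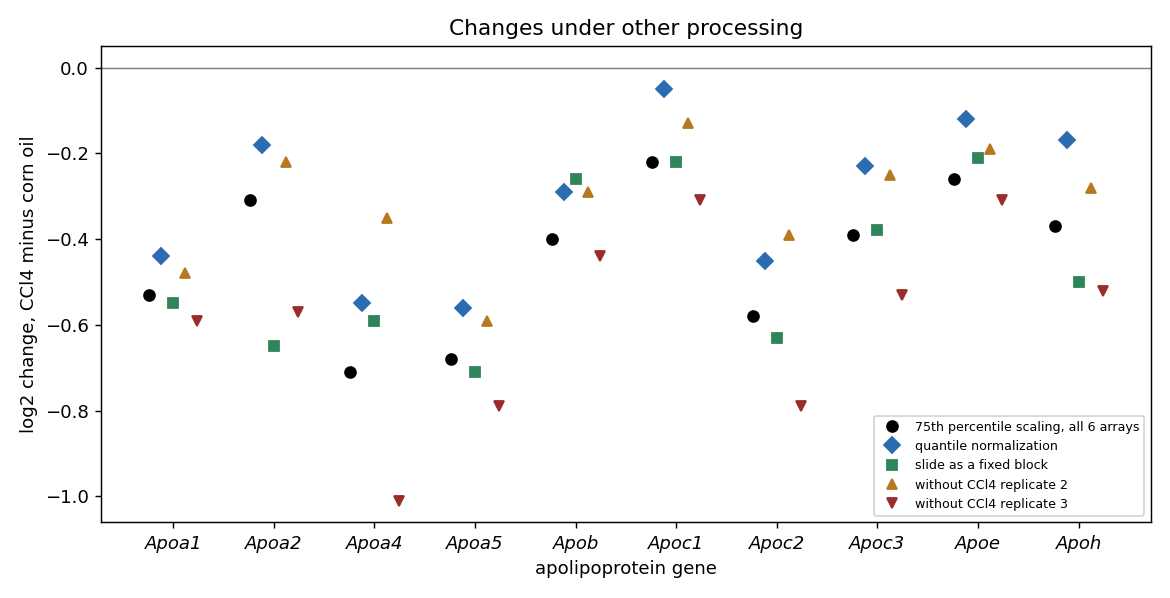
Log2 change of each gene (vertical axis) under 75th percentile scaling, quantile normalization, slide as a fixed block, and without CCl4 replicate 2 or 3. All points lie below 0, nearest to it for Apoc1 under quantile normalization (-0.05) and farthest for Apoa4 without CCl4 replicate 3 (-1.01).

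Markers of liver cell types are given beside these values. For the counts in this and all lists below, 57.1% of all genes tested had a change below 0 and 0.637% passed. At an unadjusted p below 0.05 lay 19.7% of all genes, and 9.74% were lower. Hepatocyte markers were below 0 for 9 of 10 genes with a median of -0.20, and 0 passed in limma (1 at an unadjusted p below 0.05, Ttr). Alb, which encodes albumin, was at -0.21 ± 0.14 (adjusted p = 0.434) and Ttr, which encodes transthyretin, at -0.24 ± 0.09 (adjusted p = 0.244). Under quantile normalization the list's median was -0.01, with 7 of 10 below 0, Alb at -0.01 and Ttr at -0.09, where the median of the apolipoprotein genes was -0.26. The summed signal of the hepatocyte markers was 7100 to 7530 times the 75th percentile in corn oil and 6030 to 6800 times in CCl4, and 0 of them were below background in either group. Their median, relative to the corn oil mean, was -0.18, -0.28 and -0.07 in CCl4 replicates 1, 2 and 3, the same order of animals as for the apolipoproteins. Of 12 macrophage markers 7 were above 0 and 5 below, 3 rose, and 6 were higher and 3 lower at an unadjusted p below 0.05, with a summed signal of 134 to 157 in corn oil and 165 to 194 in CCl4. The 3 that rose were the lipid-associated macrophage genes Trem2 (4.33 ± 0.32, adjusted p = 0.0105) and Gpnmb (3.04 ± 0.42, adjusted p = 0.0460) and the lectin gene Lgals3 (2.36 ± 0.15, adjusted p = 0.00725). They passed in 15, 9 and 14 of 19 alternatives, and none of them did with slide as a fixed block (adjusted p = 0.136, 0.238 and 0.115). Under normexp background correction the change of Trem2 was 2.74 (adjusted p = 0.00267). With 1 array left out, Trem2 did not pass without CCl4 replicate 1 (adjusted p = 0.0561) or 2 (0.0895), and Lgals3 did not when corn oil replicate 3 (0.0527), CCl4 replicate 1 (0.0542) or CCl4 replicate 2 (0.0716) was dropped. Gpnmb passed when corn oil replicate 2 was dropped (adjusted p = 0.0399) and in no other such fit (0.06 to 0.183). The 5 below 0, named after their values were seen, included the complement genes C1qa (-0.37 ± 0.15, adjusted p = 0.250) and C1qc (-0.60 ± 0.15, adjusted p = 0.110) and the Kupffer cell genes Clec4f (-0.35 ± 0.14, adjusted p = 0.247), Vsig4 (-0.50 ± 0.21, adjusted p = 0.262) and Cd5l (-0.23 ± 0.28, adjusted p = 0.681). Marco, also known from Kupffer cells, was among the 7 above 0 (0.91 ± 0.24, adjusted p = 0.129), and its groups did not overlap. In the other lists 0 passed, and the counts in brackets are at an unadjusted p below 0.05. Medians were 0.16 over 9 stellate cell genes (4 higher, 0 lower) and 0.06 over 6 endothelial genes (0 higher, 1 lower). They were 0.43 over 6 cholangiocyte genes (2 higher, 0 lower), -0.27 over 4 enterocyte genes (0 higher, 1 lower) and -0.13 over 5 erythroid genes (0). The part of cell makeup in the apolipoprotein values was not tested. In bulk liver RNA, fewer cells of a type and less RNA per cell cannot be told apart.

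Of 10 other genes tested with an apolipoprotein name or a product on plasma lipoproteins, 7 had a change below 0, with a median of -0.38. In limma 0 passed (5 lower at an unadjusted p below 0.05). The 3 above 0 included Apoo (0.06) and Apool (0.05), which encode mitochondrial proteins. Apon had the largest difference, at 4.85, 4.67 and 4.88 in corn oil and 3.82, 3.10 and 4.24 in CCl4 (-1.08 ± 0.28; adjusted p = 0.125). As for Apoa4 and Apoc2, CCl4 replicate 2 was the lowest and replicate 3 the highest of the CCl4 animals. Saa4, a constitutive serum amyloid A of high density lipoprotein, was at -0.37 ± 0.11 (adjusted p = 0.155), and Apom, the sphingosine-1-phosphate carrier of that particle, at -0.38 ± 0.14 (adjusted p = 0.208). Apoc4, the fourth gene of the Apoc2 to Apoe stretch, was at -0.20 ± 0.14 (adjusted p = 0.444), and Clu, which encodes clusterin, was at 0.15 ± 0.15 (adjusted p = 0.602). By position, the 4 genes of the Apoa1 to Apoa5 stretch were at -0.53, -0.39, -0.71 and -0.68 in their order, and the 4 of the Apoc2 to Apoe stretch at -0.58, -0.20, -0.22 and -0.26. Whether these stretches differ was not tested.

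Genes that assemble lipoproteins or edit Apob messenger RNA did not pass either, with 0 of 19 in limma, a median of -0.09, and 2 higher and 3 lower at an unadjusted p below 0.05. Mttp, which loads lipid onto ApoB, was at -0.32 ± 0.13 (adjusted p = 0.245). Its second probe gave -0.06 ± 0.20 in the fit over probes (adjusted p = 0.895), and the groups overlapped there. P4hb, the partner subunit of Mttp and a protein disulfide isomerase, was at 0.50 ± 0.11 (adjusted p = 0.0995). Apobec1, the deaminase whose editing of the Apob transcript yields ApoB-48, which rat liver makes as well as ApoB-100, was at 1.82, 1.98 and 1.57 in corn oil and 2.72, 2.65 and 2.02 in CCl4. The groups did not overlap, the change was 0.67 ± 0.22 (adjusted p = 0.184), and a second probe gave 0.63. A1cf, its RNA-binding cofactor, was at 0.12 ± 0.16 (adjusted p = 0.698), a sign that turned with slide as a fixed block (-0.16) but not as a random one (0.14). The arrays do not measure editing itself.

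Lpl was the 1 gene of the 102 tested in the pathway lists that passed, where 0.637% of all genes tested did. Lpl encodes lipoprotein lipase, the enzyme that Apoc2 and Apoa5 activate and Apoc3 inhibits, and adult liver makes little of it. It was at -2.84, -2.80 and -3.06 in corn oil and -1.46, -1.01 and -1.55 in CCl4, so that all CCl4 animals were higher. Lpl rose 2.96-fold (1.56 ± 0.17; limma adjusted p = 0.0252). A dimmer second probe, well above background on 2 of the 3 corn oil arrays, gave 1.91. Lpl was at 1.07 under normexp background correction (adjusted p = 0.0211). It did not pass without corn oil replicate 1 (adjusted p = 0.0909), 2 (0.0644) or 3 (0.0851) or without CCl4 replicate 1 (0.105) or 2 (0.0971), but did without CCl4 replicate 3 (0.0280). With slide as a fixed block its change was 1.44 (adjusted p = 0.195), and with the replicate number as a block 1.56 (adjusted p = 0.0707).

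Of the other 10 lipolysis genes, 0 passed, and the list of 11 had a median of -0.21 (2 higher and 3 lower at an unadjusted p below 0.05). Angptl4, an inhibitor of lipoprotein lipase, was at -0.50 ± 0.12 (adjusted p = 0.101). Among 11 genes of high density lipoprotein remodelling and cholesterol efflux 0 passed, with a median of 0.01 (1 higher and 2 lower at an unadjusted p below 0.05). Lcat, the esterifying enzyme that ApoA-I activates, was at 7.02, 7.07 and 7.06 in corn oil and 6.74, 6.33 and 6.56 in CCl4. The groups did not overlap (-0.51 ± 0.13; adjusted p = 0.113). Scarb1, the receptor for high density lipoprotein, was at -0.43 ± 0.15 (adjusted p = 0.195) and Lipc, hepatic lipase, at -0.46 ± 0.20 (adjusted p = 0.260). The efflux transporters were on the other side of 0, with Abcg1 at 0.55 ± 0.11 (adjusted p = 0.0763) and Abca1, which lipidates ApoA-I, at 0.30 ± 0.14 (adjusted p = 0.291). Pltp, the phospholipid transfer protein, was level between groups (ratio 0.997, SE of the log2 change 0.24), and its sign turned with quantile normalization (0.02).

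Lipoprotein receptors held the largest differences of the pathway without passing, with 0 of 16 genes in limma, a median of 0.01, and 3 higher and 3 lower at an unadjusted p below 0.05. Olr1, a scavenger receptor for oxidised low density lipoprotein, was at -6.22, -4.42 and -6.81 in corn oil and -2.33, -2.25 and -2.32 in CCl4 (adjusted p = 0.0615). Only 1 of the 3 corn oil arrays had it well above background, and its change of 3.52 ± 0.58 was 1.17 under normexp background correction, where it passed (adjusted p = 0.0153). Vldlr, the very low density lipoprotein receptor, was likewise dim in corn oil, above background in 1 animal of 3. Its change of 2.27 ± 0.62 (adjusted p = 0.133) was 0.42 under normexp (adjusted p = 0.139). Olr1 and Vldlr were well above background on all 3 CCl4 arrays, which alone met the filter on dim probes. The group in which they were high thus admitted them to the test, so their fits are no separate evidence of a rise. With the filter on all 6 arrays neither was tested. Lrp1, the remnant receptor that binds ApoE, was at -0.27 ± 0.21 (adjusted p = 0.505).

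**Figure D4:**
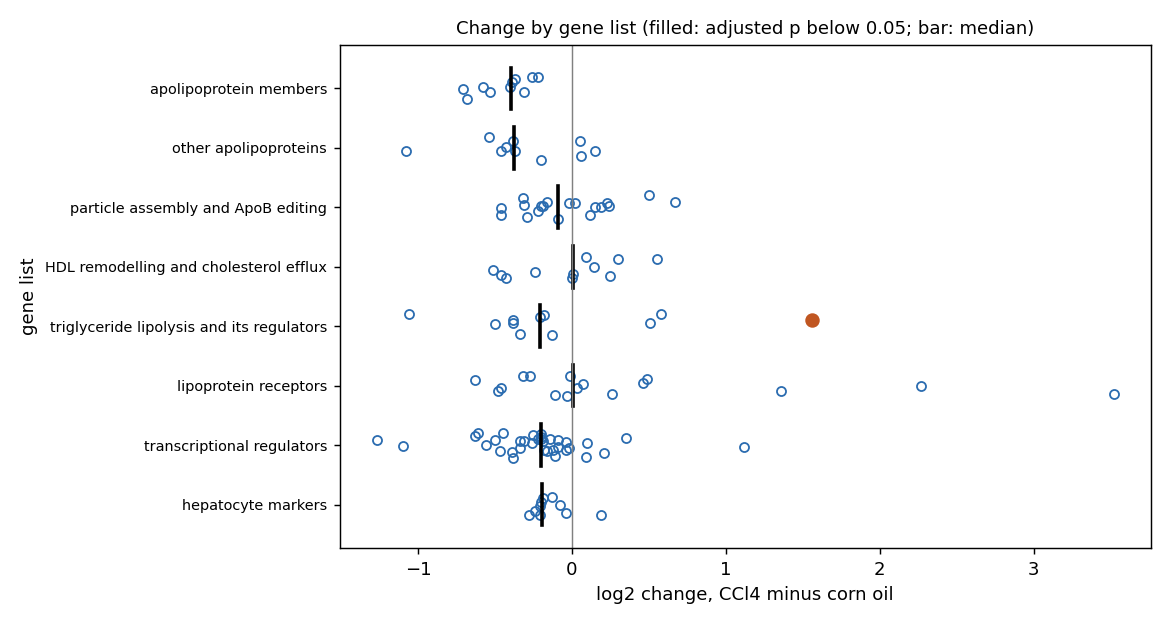
Log2 change (CCl4 minus corn oil, horizontal axis) of each tested gene by list (vertical axis), filled where the adjusted p was below 0.05, with a bar at the list's median. The 10 apolipoproteins lie between -0.71 and -0.22, and Lpl (1.56) is the 1 filled point, where 0.637% of all genes tested passed.

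Of 35 regulators of transcription known from liver lipid metabolism 30 had a change below 0, with a median of -0.20, and 0 passed in limma (8 lower and 0 higher at an unadjusted p below 0.05). Over all genes, 57.1% had a change below 0 and 9.74% were lower at that level. Creb3l3, a liver transcription factor known to act on Apoa4, Apoa5 and Apoc2, was at 7.77, 7.73 and 7.87 in corn oil and 7.34, 7.33 and 7.21 in CCl4. The groups were well apart (-0.50 ± 0.10; adjusted p = 0.0767), and it passed under normexp (adjusted p = 0.0472) but in no other alternative. Its second probe gave -0.28 ± 0.10 in the fit over probes (adjusted p = 0.272), and the mean of its probes -0.39 (adjusted p = 0.106). Hnf4a, a nuclear receptor known to act on many apolipoprotein genes, had a change of -0.34 ± 0.17 by the probe that stands for it (adjusted p = 0.315), and its other 3 probes gave -0.36, -0.63 and -0.69. Nr1i3, the constitutive androstane receptor, was at 3.36, 3.66 and 3.20 in corn oil and 1.98, 2.32 and 2.62 in CCl4 (-1.10 ± 0.20; adjusted p = 0.0723). Cebpa was at -0.47 ± 0.16 (adjusted p = 0.192), whereas Ppara, the fatty acid receptor, was at -0.16 ± 0.22 (adjusted p = 0.714) and Nr1h3, the oxysterol receptor, at -0.12 ± 0.13 (adjusted p = 0.640).

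The genes most like Apoa4 over the 6 arrays were found by the root mean square difference of profiles after the mean of each gene was subtracted. They were Crot (0.11), a peroxisomal carnitine acyltransferase, Hsd11b1 (0.136), which regenerates active glucocorticoid, and Agxt (0.147), a peroxisomal aminotransferase. Crot was at 6.09, 5.90 and 6.02 in corn oil and 5.44, 4.53 and 5.87 in CCl4. CCl4 replicate 2 was the lowest and CCl4 replicate 3 nearest to the corn oil animals, as for Apoa4, an order that follows from how the genes were picked. The lower CCl4 means of the 3 genes follow from it too, so they are no separate support for the Apoa4 value. None of the 3 passed in limma, with changes of -0.72 for Crot (adjusted p = 0.282), -0.60 for Hsd11b1 (adjusted p = 0.250) and -0.76 for Agxt (adjusted p = 0.247).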

How the data were processed

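Per the labels' protocols, 0.2 µg of total liver RNA per animal was labelled with Cy3 for single-colour Agilent arrays, 3 in each group. The deposited scanner files hold background-subtracted intensity values from Agilent Feature Extraction (10.7 in the submitters' processing notes and 10.7.1.1 in the headers), not scaled between arrays. Further deposited columns flag saturated, outlying and clearly detected spots. The authors' value table gives a linear ratio, namely each array's processed signal divided by 583.3 to 676.5 units, near its 75th percentile (582.6 to 675.6), a step inferred from the values. Its column medians were 0.103 to 0.110.

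Control spots (1439) and 26 probes with an outlier flag were left out, none of them of the 10 genes. Probes were named by RefSeq accession, using a GRCr8 gene table: 28180 of 61511 probes (45.8%) had 1 symbol. The array design names build rn4. Between 61.9% and 67.3% of probes were well above background, and 0 to 4 were saturated per array. Log2 processed signal minus the array's 75th percentile was used. Genes needed a probe detected above background on 3 or more arrays, and the brightest probe of a gene stood for it. Groups were compared with limma 3.58.1 (R 4.3.3; lmFit and eBayes, two-sided, Benjamini-Hochberg over all genes tested, threshold 0.05). A run on simulated data used larger changes than those of the 10 genes and no slide effect, so it does not bear on changes of their size. The number of arrays limits the precision.

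The genes and lists were chosen with earlier results of these data known. Named genes were the 10 members, fixed pathway genes, in each list the passing genes or else the 2 with the smallest p, and the 3 genes most like the member with the largest change. Some genes under that rule are not reported here. Other list members named were chosen after their values were seen. Apof and Srebf1, also in that rule, and genes without a matched probe are not analysed here. Alternatives were quantile and median scaling, normexp background correction (offset 50, on median spot signals), the authors' values, 2 other filters on dim probes, no saturated probes, probe means, a variance trend, slide as block (fixed, then random), the shared slide by itself, a replicate number block, and each array left out in turn.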

Additional observations from a re-analysis of the deposited data

How the results depend on the processing

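Under 19 alternatives all 190 values of the 10 apolipoprotein genes stayed below 0 and 0 passed in limma, with a smallest adjusted p of 0.0637 (Apoa5 with a variance trend). Many of these values repeat each other. The authors' values, the filters on dim or saturated probes, the variance trend and the replicate block left all 10 changes the same to the second decimal. The shared slide by itself gave the changes of slide as a fixed block. The count of signs is therefore not a count of separate checks. The member median ran from -0.53 to -0.26, and from -0.55 to -0.28 when each array was left out. No member probe passed in any of the 18 alternatives run on probes.

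The count of pathway genes, 1 for all arrays, was 4 under normexp (Lpl, Olr1, Nr1i3 and Creb3l3), 2 with a variance trend (Lpl and Olr1), and 0 with slide as a fixed block, within the first slide and with the replicate block. Leaving out each array gave 0 to 3: 0 when corn oil replicate 1, corn oil replicate 3, CCl4 replicate 1 or CCl4 replicate 2 was dropped, 1 without corn oil replicate 2 (Olr1, not Lpl), and 3 without CCl4 replicate 3 (Lpl, Nr1i3 and Ces1d). The count over all genes, 76, was 215 under normexp, 140 with the filter on all 6 arrays, 157 with a variance trend, 4 with slide as a fixed block, 0 within the first slide (where fewer arrays enter) and 10 with the replicate block. It was 2 to 241 when each array was left out: 27, 43 and 5 without corn oil replicates 1, 2 and 3, and 6, 2 and 241 without CCl4 replicates 1, 2 and 3. The cause was not tested.

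Signs turned in 12 values of 4 genes near 0, none past the threshold. Pltp was at 0.02 under quantile normalization, 0.01 with slide as a random block, and from -0.19 to 0.19 with arrays left out (0.19 when corn oil replicate 3, 0.13 when CCl4 replicate 1 and 0.04 when CCl4 replicate 3 was dropped). A1cf was at -0.16 with slide as a fixed block and on the shared slide alone (0.14 as a random block), and from -0.01 (CCl4 replicate 3 dropped) to 0.26 with arrays left out. Nr1h3 was at 0.02 in those same fits (-0.12 as a random block) and from -0.18 to 0.00 (CCl4 replicate 2 dropped), and Ppara ran from -0.36 to 0.04 (corn oil replicate 2 dropped).

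Replicate numbers showed no clear pairing of the animals. Deviations from the group means correlated at -0.05, 0.16 and 0.02 for numbers 1, 2 and 3, and at -0.18 to 0.15 for unlike numbers. The value for number 2 was the highest of all, whereas corn oil replicate 1 correlated best with CCl4 replicate 2 (0.04). With 3 animals per group these correlations cannot exclude a pairing. With 3 arrays per group and the second slide holding CCl4 arrays only, differences of the size seen here have wide intervals, and slide and group are told apart through CCl4 replicate 1 alone.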

Other observations

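The nearest measured genes that are no apolipoproteins were set beside the apolipoprotein genes, up to 2 on each side by gene order in the GRCr8 table, an addition made after the data were seen. Of 20 such genes 10 had a change below 0, with a median of -0.01, and 1 passed in limma. Around the Apoa1 to Apoa5 stretch, Sik3 was at 0.02, Pafah1b2 at 0.06, Zpr1 at 0.13 and Bud13 at -0.37. Around the Apoc2 to Apoe stretch, Clptm1 was at -0.08, Clasrp at -0.04, Tomm40 at -0.27 and Nectin2 at -0.26. None of these 8 passed.

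The gene that passed was Cep112, which encodes a centrosomal protein and follows Apoh. It was at -5.09, -5.23 and -5.25 in corn oil and -3.97, -3.77 and -4.07 in CCl4, so all CCl4 animals were higher (1.25 ± 0.12; limma adjusted p = 0.0223). It was dim, and 2 of the 3 corn oil arrays and all 3 CCl4 arrays had it well above background. It passed in 9 of 18 alternatives, and its change was 0.22 under normexp background correction (adjusted p = 0.222). With 1 array left out it passed when CCl4 replicate 3 was dropped (adjusted p = 0.0219) and in no other such fit (0.0538 to 0.108). Nr1i3 lies close before Apoa2. Apoa2 itself was at -0.31 ± 0.28, and its groups overlapped, whereas those of Nr1i3 did not.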
